A study of Mus musculus with 10 samples.

Results

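Integrins, laminins and syndecans connect vascular smooth muscle cells (VSMCs) to the matrix around them. The genes described here were chosen by symbol alone, as the integrin alpha chains (Itga), the integrin beta chains (Itgb), the laminin alpha, beta and gamma chains (Lama, Lamb, Lamc) and the syndecans (Sdc). They numbered 41 of the 55426 genes in the table, with 18 integrin alpha chains, 8 integrin beta chains, 5 laminin alpha chains, 3 laminin beta chains, 3 laminin gamma chains and 4 syndecans.

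An integrin is a pair of 1 alpha and 1 beta chain that spans the cell membrane, binds matrix proteins outside the cell, and is coupled to actin filaments inside it. A laminin is a trimer of an alpha, a beta and a gamma chain and is the main adhesive protein of the basement membrane that surrounds each VSMC. Syndecans are transmembrane proteins that carry heparan sulphate chains, through which they bind growth factors and matrix proteins beside the integrins.

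RNA was measured by RNA-Seq in the thoracic aortas of 3 control mice (Prdm16f/f) and 3 Prdm16SMKO mice (Prdm16f/f with SMMHC-CreERT2), so both groups carry the floxed alleles. SMMHC-CreERT2 is a Cre recombinase under the Myh11 promoter that acts in smooth muscle after tamoxifen. Its transgene sits on the Y chromosome, so the Prdm16SMKO mice are male. The sex of the controls does not follow from the transgene. The labelled controls lack Cre, so effects of Cre and of the deletion cannot be told apart, and the age of the mice is not in the labels. PRDM16 binding was mapped by ChIP-Seq in wild-type primary vascular fibroblasts that carried lentiviral Flag-tagged PRDM16 or the empty vector (48 hours of infection, then 2 μg/mL puromycin for 1 week), with 1 anti-Flag library each.

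The values are TPM, a unit that counts transcripts after scaling for gene length and has the same total in each aorta, so read depth is unknown and no counting interval was computed. Smooth muscle markers had the highest summed TPM of the 10 marker lists in every aorta, at 21240 to 24770 TPM in the controls and 14220 to 18420 TPM in the Prdm16SMKO aortas. The summed fibroblast, endothelial, leukocyte and platelet markers overlapped between the groups, and epithelial markers stayed at or below 0.35 TPM in sum, although the endothelial gene Erg separated the groups (46.1 ± 3.24 against 31.7 ± 2.25 TPM, SD, n = 3 each). Adipocyte markers varied between aortas of both groups, from 110.7 to 544.1 TPM in the controls and 127.8 to 433 TPM in the Prdm16SMKO aortas, with the highest sums in control 2 and Prdm16SMKO aorta 3. The 2 mesothelial markers were low, at sums of 0.11 to 2.29 and 1.89 to 4.09 TPM, with overlapping groups. Prdm16 itself was 56.1, 47.6 and 40.3 TPM in the controls and 23.3, 33.3 and 23.4 TPM in the Prdm16SMKO aortas, with an adjusted p of 0.072 by limma.

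Expression was compared with limma on log2(TPM + 0.1) over 15668 genes whose TPM averaged 0.5 or more in the 6 aortas, with p-values adjusted over all of them and a threshold of 0.05. Of the 41 genes, 31 passed this filter. Among these, 3 were lower in the Prdm16SMKO aortas (Itgb3, Itga9 and Sdc1), where 0.683% of all tested genes were called lower. None of the 3 was called by limma without the filter on low values, with eBayes without a trend, or with any aorta but Prdm16SMKO aorta 2 left out (without that aorta, Itgb3 and Itga9 were called). None of the 31 was called higher by limma, against 0.389% of all tested genes, and at an unadjusted p under 0.05 there were 7 lower and 1 higher. This balance depended on the scaling, with 7 lower and 6 higher at an unadjusted p under 0.05 after median-ratio rescaling, and 6 and 6 after quantile normalization. The median log2 fold change of the 31 genes was −0.14, with 22 below 0, beside a median of −0.12 over all tested genes, and the number below 0 was 16 and 19 under those scalings.

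Itgb3 encodes integrin beta 3, which pairs with the alpha v chain to bind vitronectin, fibronectin and osteopontin, and with the alpha IIb chain on platelets. Its level was 75.6, 57.8 and 56.5 TPM in the controls and 31.1, 35.6 and 24.3 TPM in the Prdm16SMKO aortas. Every control aorta was above every Prdm16SMKO aorta. The mean of the Prdm16SMKO aortas was 47.9% of the control mean (63.3 ± 10.7 against 30.3 ± 5.70 TPM, SD, n = 3 each), with a log2 fold change of −1.06 (SE 0.175, limma adjusted p = 0.028).

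A PRDM16 Flag peak covered the start of Itgb3 in the fibroblasts, at chr11:104607854-104608505 (GRCm38), with its centre 180 bp downstream of the transcription start site (TSS) in an intron. MACS2 gave it a fold enrichment of 6.68 over the local background. Itgb3 held 2 more peaks in its introns, centred 3.71 and 17.6 kb downstream of the TSS with fold enrichments of 4.57 and 6.20. The 101 bases around the summit of the promoter peak, printed on the forward strand, which is also the strand of the gene, were 65.3% G or C and held 9 CpG dinucleotides. They are shown because Itgb3 had the largest fall of the called genes and the highest promoter enrichment among them.
Itgb3 chr11:104608135-104608235: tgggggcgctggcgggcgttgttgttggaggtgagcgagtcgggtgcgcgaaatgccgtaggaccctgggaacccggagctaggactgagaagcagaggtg

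Itga9 encodes integrin alpha 9, which pairs with beta 1 and binds tenascin-C, VCAM1 and other matrix ligands. Its level was 279.6, 227.2 and 242.3 TPM in the controls and 145.1, 161.7 and 118.1 TPM in the Prdm16SMKO aortas. The groups did not overlap, and the lowest control stood well above the highest Prdm16SMKO aorta. The log2 fold change was −0.82 (SE 0.142, limma adjusted p = 0.035), and the Prdm16SMKO mean was 56.7% of the control mean.

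The Itga9 promoter peak lay at chr9:118606766-118607096 (GRCm38), with its centre 222 bp downstream of the TSS in an exon and a fold enrichment of 5.27. A further peak was in an intron near the far end of the gene, at chr9:118885362-118885622, with a fold enrichment of 4.57. All 101 bases around the promoter peak's summit were coding exon, with 79.2% G or C and 14 CpG dinucleotides, the highest content of the summit windows printed here. Gm2415, a gene on the opposite strand inside Itga9, had a mean of 10.8 TPM and overlapping groups. Whether the libraries keep the strand is not stated and exon overlap was not examined, so any mixing of its reads with those of Itga9 is unknown.
Itga9 chr9:118606964-118607064: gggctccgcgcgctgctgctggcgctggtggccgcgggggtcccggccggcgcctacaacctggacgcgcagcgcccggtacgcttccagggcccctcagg

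Sdc1 encodes syndecan-1, a heparan sulphate carrier best known from epithelia and plasma cells. Its level was 18.3, 14.0 and 14.7 TPM in the controls and 9.26, 7.48 and 7.59 TPM in the Prdm16SMKO aortas. The groups did not overlap. The log2 fold change was −0.94 (SE 0.165, limma adjusted p = 0.037), with means of 15.6 ± 2.3 and 8.11 ± 1.00 TPM (SD, n = 3 each).

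Sdc3, which encodes syndecan-3 and is known from nerve and muscle tissue, lay in the opposite direction. Its level was 14.9, 11.4 and 12.5 TPM in the controls and 16.5, 17.8 and 19.6 TPM in the Prdm16SMKO aortas. The groups did not overlap, but Sdc3 did not pass the threshold, with a log2 fold change of 0.48 (SE 0.151, limma adjusted p = 0.23). The paper's own list of differentially expressed genes with PRDM16 promoter peaks holds Sdc3 as higher, and Itgb3, Itga9 and Sdc1 as lower. That list was drawn from these same data with the paper's own test, so it is not separate support. The ratio of Sdc3 to Sdc1 TPM was 0.816, 0.817 and 0.851 in the controls and 1.78, 2.38 and 2.59 in the Prdm16SMKO aortas. The lower of the 2 syndecans by level was therefore Sdc3 in every control and Sdc1 in every Prdm16SMKO aorta. Both genes already separated the groups in opposite directions, so the separation of their ratio follows from that and is no further support.

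Both genes had 2 promoter peaks in the fibroblasts. Those of Sdc1 were centred 420 and 1480 bp downstream of the TSS in introns, with fold enrichments of 5.04 and 5.27. Those of Sdc3 were centred at −340 and 462 bp from the TSS, where negative values are upstream, with fold enrichments of 5.63 and 7.74. The summit windows are shown because these 2 syndecans differed in direction, and capitals mark the E-box CACGTG, which stood in 1 of the 4 windows.
Sdc1, nearer peak, chr12:8771695-8771795: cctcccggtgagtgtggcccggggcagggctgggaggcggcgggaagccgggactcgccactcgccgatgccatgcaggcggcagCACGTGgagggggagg
Sdc1, farther peak, chr12:8772868-8772968: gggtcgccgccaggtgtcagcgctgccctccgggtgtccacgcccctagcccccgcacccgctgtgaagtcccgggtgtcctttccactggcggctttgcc
Sdc3, upstream peak, chr4:130792157-130792257: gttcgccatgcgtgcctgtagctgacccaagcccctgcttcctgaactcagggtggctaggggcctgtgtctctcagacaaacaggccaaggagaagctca
Sdc3, downstream peak, chr4:130792957-130793057: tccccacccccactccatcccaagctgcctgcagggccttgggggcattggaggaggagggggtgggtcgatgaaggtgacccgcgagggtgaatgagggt

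All windows are on the forward strand of GRCm38, which is the strand of all 4 genes, and were read from the RefSeq genome of that build. The windows of Sdc3 held 2 and 3 CpG dinucleotides, and those of Sdc1 held 10 and 9. The upstream Sdc3 window had the lowest G and C content of those printed, at 59.4%.

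**Figure D1:**
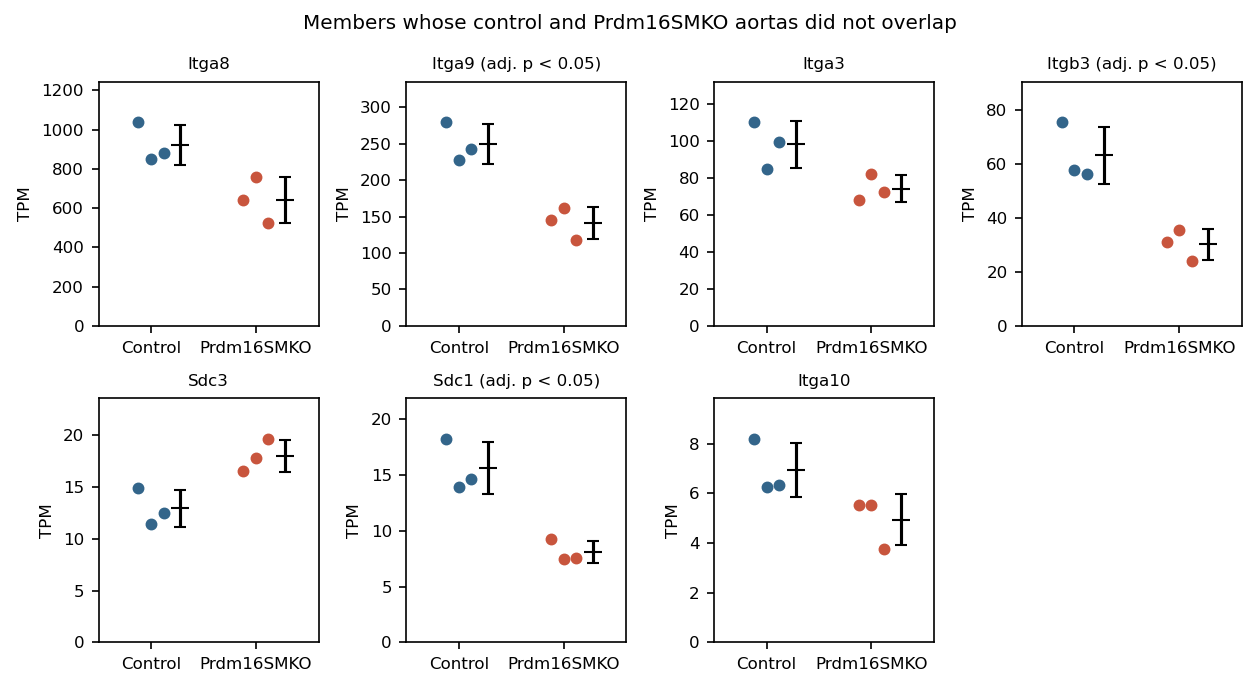
TPM (vertical axis, from 0) of the 7 tested genes whose control (blue) and Prdm16SMKO (red) aortas did not overlap, 1 point per aorta, with the mean and SD of 3 aortas in black beside them. In 6 panels all Prdm16SMKO points lie below the control points, while in the Sdc3 panel they lie above, at 16.5 to 19.6 against 11.4 to 14.9 TPM.

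In 6 of the 31 tested genes every Prdm16SMKO aorta was below every control aorta (Itga3, Itga8, Itga9, Itga10, Itgb3 and Sdc1), and in 1 every Prdm16SMKO aorta was above (Sdc3). Over all tested genes such separation was found in 14.9% toward lower and 4.08% toward higher values. The other 24 tested genes overlapped between the groups and had adjusted p-values of 0.382 to 0.987 by limma.

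Itga8 encodes integrin alpha 8, which pairs with beta 1, binds nephronectin and fibronectin, and is a marker of contractile smooth muscle. It was the integrin alpha chain of highest level, at 1038, 848.1 and 880.6 TPM in the controls and 643.5, 760.1 and 526.4 TPM in the Prdm16SMKO aortas. The groups did not overlap, but the gene did not pass the threshold (log2 fold change −0.53, SE 0.150, limma adjusted p = 0.172). Itga8 also supplies the promoter of a second Cre line of the study, which by the labels was not used for these aortas. The antisense gene E030013I19Rik, whose span overlaps Itga8 on the other strand, was likewise lower without overlap, at 160 to 199 TPM in the controls and 109 to 153 TPM in the Prdm16SMKO aortas. Any mixing of reads between the 2 genes is unknown for the same reasons as for Gm2415.

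Among the collagen-binding alpha chains, Itga10 was 8.20, 6.26 and 6.34 TPM in the controls and 5.55, 5.52 and 3.76 TPM in the Prdm16SMKO aortas. The groups did not overlap and the limma adjusted p was 0.382. Itga1, the collagen receptor chain of highest level, had means of 43.0 ± 4.25 and 45.4 ± 6.09 TPM (SD, n = 3 each). Itga11 had the highest log2 fold change of all tested members, at 0.54 (SE 0.294, limma adjusted p = 0.487), but a mean of only 1.86 TPM. Itga2 stayed under the filter.

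Among the laminin-binding alpha chains, Itga3 was 110.2, 84.8 and 99.6 TPM in the controls and 68.2, 82.4 and 72.5 TPM in the Prdm16SMKO aortas. The groups were separate only by the small gap between 84.8 and 82.4 TPM, with a log2 fold change of −0.40 (SE 0.134, limma adjusted p = 0.25). Itga7, a chain typical of muscle, had overlapping groups with means of 69.8 ± 4.68 and 70.9 ± 12.3 TPM (SD, n = 3 each). Itga6 ranged from 4.0 to 12.8 TPM among the controls, and the Prdm16SMKO aortas lay within that range. It was highest in control 2 and Prdm16SMKO aorta 3, the aortas with the highest adipocyte markers, whose part in its level was not tested.

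Among the alpha chains that recognise the Arg-Gly-Asp motif, Itga5, the classical fibronectin receptor chain, was 130.2, 118.3 and 110.6 TPM in the controls and 128.4, 186.0 and 134.1 TPM in the Prdm16SMKO aortas. One control exceeded 1 Prdm16SMKO aorta, and the log2 fold change was 0.30 (SE 0.155, limma adjusted p = 0.459). Itgav, the partner of beta 3, beta 5 and beta 8, had means of 52.6 ± 5.07 and 46.9 ± 3.70 TPM (SD, n = 3 each). The leukocyte chains were low, with Itgam at a mean of 0.827 TPM, Itgb2 at 1.19 TPM, and Itgad listed at 0 in all aortas. Itga2b, the platelet chain, had a mean of 2.33 TPM and overlapping groups.

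Itgb1 encodes the beta chain shared by most matrix-binding integrins and was the beta chain of highest level. Its level was 823.1, 777.4 and 797.0 TPM in the controls and 744.3, 793.1 and 689.7 TPM in the Prdm16SMKO aortas. The groups overlapped, with a log2 fold change of −0.11 and a 95% interval of −0.34 to 0.12, and its sign turned to 0.01 and 0.07 after median-ratio rescaling and quantile normalization. Itgb5, the other abundant partner of alpha v, had a log2 fold change of −0.36 (SE 0.157, limma adjusted p = 0.382) with overlapping groups.

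The laminin chains showed no call in either direction by limma, and none of the 8 tested chains separated the groups or had an unadjusted p under 0.05. After median-ratio rescaling and after quantile normalization 3 of the 8 were higher at an unadjusted p under 0.05 and none was called. Their lowest unadjusted p was that of Lama2, at 0.20. Lama4, the alpha chain of highest level, was 61.0, 52.7 and 50.2 TPM in the controls and 58.9, 64.4 and 47.8 TPM in the Prdm16SMKO aortas. Lamb2, the beta chain typical of mature vessels, was 385.4, 300.1 and 310.2 TPM in the controls and 309.5, 362.5 and 270.9 TPM in the Prdm16SMKO aortas. Lamc1, the gamma chain of most laminins, was 78.8, 68.2 and 65.1 TPM in the controls and 71.2, 88.0 and 65.9 TPM in the Prdm16SMKO aortas. All 3 overlapped, and their 95% intervals for the log2 fold change were −0.27 to 0.38, −0.41 to 0.25 and −0.24 to 0.40.

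Sdc4, the syndecan of focal adhesions, had the highest level of the 4 syndecans, at 110.0, 104.5 and 98.7 TPM in the controls and 75.5, 104.5 and 77.4 TPM in the Prdm16SMKO aortas. Prdm16SMKO aorta 2 reached the level of control 2, and the limma adjusted p was 0.439. Sdc2 had means of 47.6 ± 5.71 and 38.0 ± 5.38 TPM (SD, n = 3 each) and overlapping groups.

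The 10 genes under the filter were Itga2, Itgad, Itgae, Itgal, Itgax, Itgb6, Itgb7, Lama1, Lama3 and Lamb3. None exceeded 0.87 TPM in any aorta, and they were not tested.

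**Figure D2:**
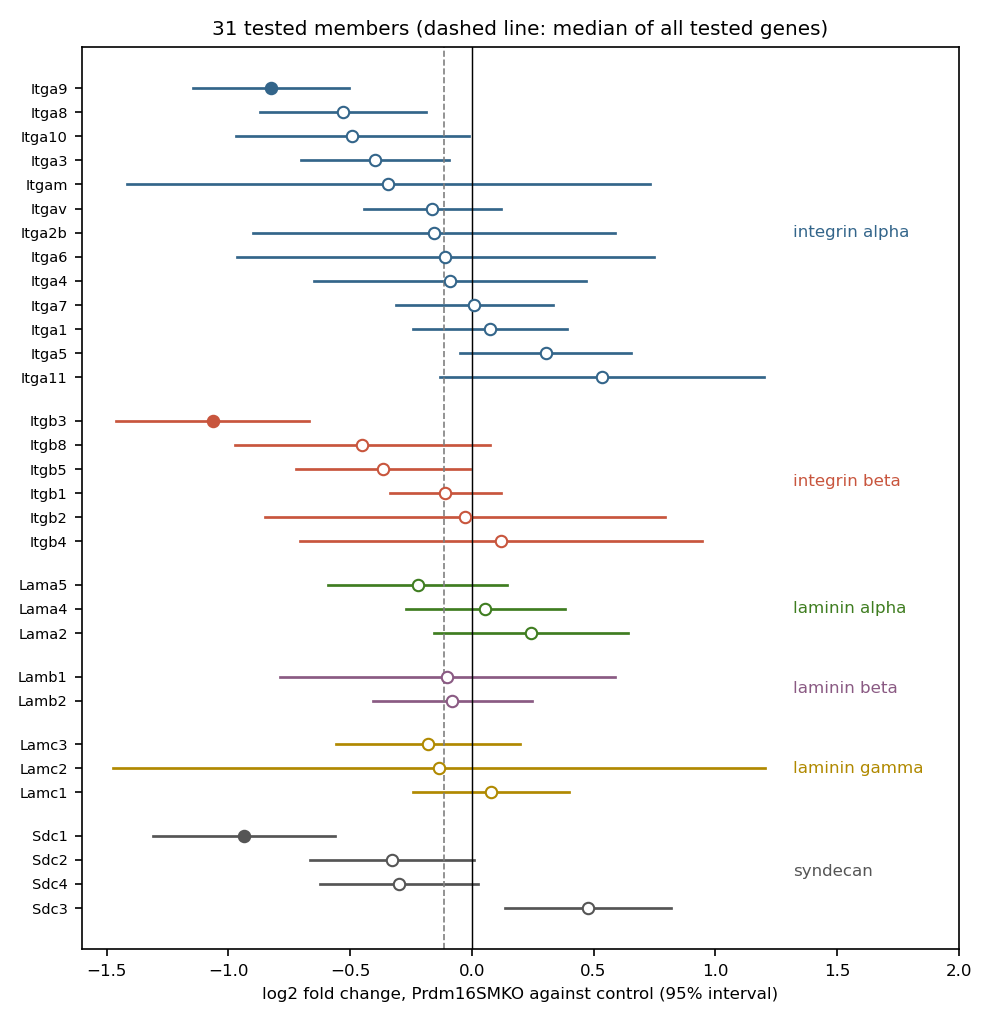
Log2 fold change of Prdm16SMKO against control aortas (horizontal axis, points) with its 95% interval (lines) for the 31 tested genes, ordered within each subfamily. Filled points mark an adjusted p under 0.05, and the dashed line marks the median of all tested genes at −0.12, with Itgb3 farthest to the left at −1.06.

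The share of each chain in the summed TPM of its subfamily does not depend on the scale of a library, and is given as a description without a test. Itga8 made up 58.9%, 58.1% and 58.1% of the alpha chains in the controls and 55.1%, 54.5% and 51.9% in the Prdm16SMKO aortas. Itga9 made up 15.9%, 15.6% and 16% in the controls and 12.4%, 11.6% and 11.6% in the Prdm16SMKO aortas. Itga5 made up 7.40%, 8.10% and 7.30% in the controls and 11.0%, 13.3% and 13.2% in the Prdm16SMKO aortas. The shares of Itga8 and Itga9 were thus lower, and that of Itga5 higher, in every Prdm16SMKO aorta than in any control. Itga1, Itga7, Itga11 and Itgav also had higher shares without overlap, while the summed alpha chain TPM was 1460 to 1760 in the controls and 1014 to 1395 in the Prdm16SMKO aortas. Shares in a subfamily have a fixed sum, so lower shares of some chains raise those of the others. In level, the Prdm16SMKO means of these chains were 105.6%, 101.6%, 149.6% and 89.3% of the control means, with overlapping groups and no call.

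Among the beta chains, Itgb3 made up 5.99%, 5.16% and 4.88% in the controls and 2.99%, 3.19% and 2.65% in the Prdm16SMKO aortas. Itgb1 made up 65.2% to 69.4% in the controls and 71.2% to 75.4% in the Prdm16SMKO aortas. The groups did not overlap for either chain. The ratio of Itgb3 to Itgb5, the 2 main partners of alpha v by level after beta 1, was 0.212, 0.207 and 0.191 in the controls and 0.122, 0.127 and 0.125 in the Prdm16SMKO aortas.

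Among the laminins, Lama5 made up 35.9% to 39.8% of the alpha chains in the controls and 29.7% to 34.3% in the Prdm16SMKO aortas. Lamc1 made up 71.7% to 72.3% of the gamma chains in the controls and 74.5% to 77.4% in the Prdm16SMKO aortas. Neither gene was called for its level. Lamb2 made up 98.3% of the beta chains on average in both groups. Of the syndecans, Sdc1 made up 8.63% ± 0.59 in the controls and 5.49% ± 1.1 in the Prdm16SMKO aortas, and Sdc3 7.15% ± 0.48 and 12.1% ± 2.1 (SD, n = 3 each), again without overlap.

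**Figure D3:**
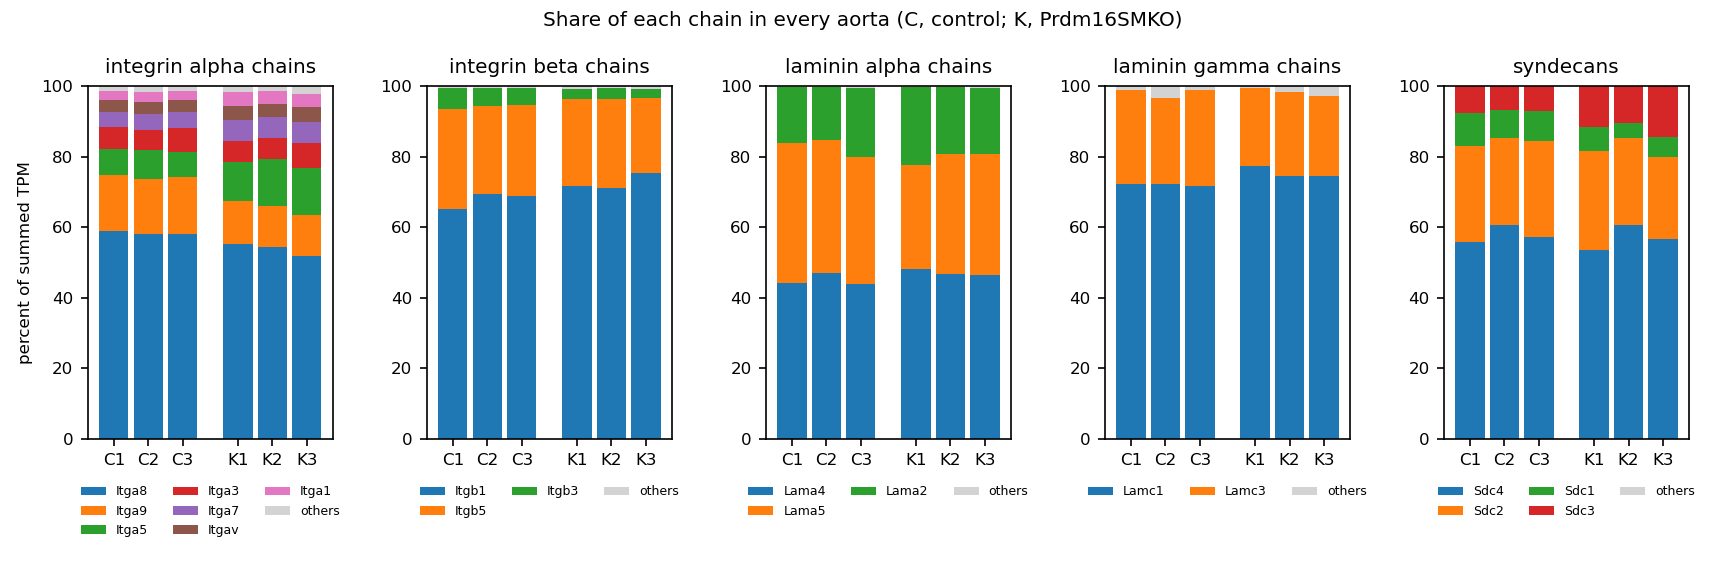
Percent of the summed TPM of each subfamily but the laminin beta chains (vertical axis) taken by each chain in the 3 control (C1 to C3) and 3 Prdm16SMKO aortas (K1 to K3), with chains too low to draw pooled as others. Itga5 widens from 7.60% to 12.5% of the alpha chains on average, and Itgb3 narrows from 5.34% to 2.95% of the beta chains.

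The summed smooth muscle markers were lower in every Prdm16SMKO aorta than in any control, and 4 of the 8 markers separated the groups in that direction, although none was called by limma (4 lower at an unadjusted p under 0.05). Acta2 was the largest part of the sum, at 12433, 11250 and 11024 TPM in the controls and 7850, 8230 and 6455 TPM in the Prdm16SMKO aortas. The sum therefore follows Acta2 more than any other marker. Only Myocd had a log2 fold change above 0, at 0.255 with overlapping groups. In bulk tissue, fewer smooth muscle cells and less RNA per cell cannot be told apart. The paper reports that Prdm16 knockdown in cultured rat VSMCs lowered the mRNA of Myh11, Acta2, Tagln and Cnn1, which are in this sum. A level per 1000 TPM of the sum is therefore not a level per smooth muscle cell. Per 1000 TPM of these summed markers, Itgb3 was 3.05, 2.66 and 2.66 TPM in the controls and 1.87, 1.93 and 1.71 TPM in the Prdm16SMKO aortas. Itga9 was 11.3, 10.5 and 11.4 TPM in the controls and 8.73, 8.78 and 8.30 TPM in the Prdm16SMKO aortas on the same scale. Sdc1 was 0.643 to 0.738 TPM in the controls and 0.406 to 0.557 TPM in the Prdm16SMKO aortas.

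The 3 called genes therefore stayed separate relative to these markers. Itga8 did not, with 39.0 to 41.9 TPM in the controls and 37.0 to 41.3 TPM in the Prdm16SMKO aortas per 1000 TPM, and the groups of Itga3 and Itga10 overlapped on this scale as well. The part of the smooth muscle markers in the lower levels was not tested.

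The genes around these receptors were followed in 4 lists. Of 16 tested integrin ligands other than laminins and collagens, 1 was called, toward lower values, and 8 separated the groups toward lower and 1 toward higher values, beside 0.683% called lower, 14.9% separate toward lower and 4.08% separate toward higher values over all tested genes. The called ligand was Tnc, which encodes tenascin-C, a ligand of the alpha 9 chain. It was 46.0, 33.5 and 33.5 TPM in the controls and 21.9, 21.6 and 17.9 TPM in the Prdm16SMKO aortas, with a log2 fold change of −0.86 (SE 0.163, limma adjusted p = 0.0497). The call lies at the edge of the threshold, with adjusted p-values of 0.0545 and 0.051 at pseudocounts of 1 and 0.01. Npnt, which encodes nephronectin, had means of 611.7 ± 61.8 and 410.1 ± 56.3 TPM (SD, n = 3 each) without overlap and a limma adjusted p of 0.088. Ccn1, Fn1 and Mfge8 had lower limma adjusted p-values than Npnt, at 0.0805, 0.084 and 0.0845. The largest fall of the 16 was that of Ccn1, with a log2 fold change of −1.36. Vcam1, also a ligand of the alpha 9 chain, had one of −0.124 with overlapping groups (limma adjusted p = 0.865). The median log2 fold change of the 16 ligands was −0.50, beside −0.12 over all tested genes. By limma 7 were lower and 0 higher at an unadjusted p under 0.05, and 3 and 3 relative to the summed smooth muscle markers.

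**Figure D4:**
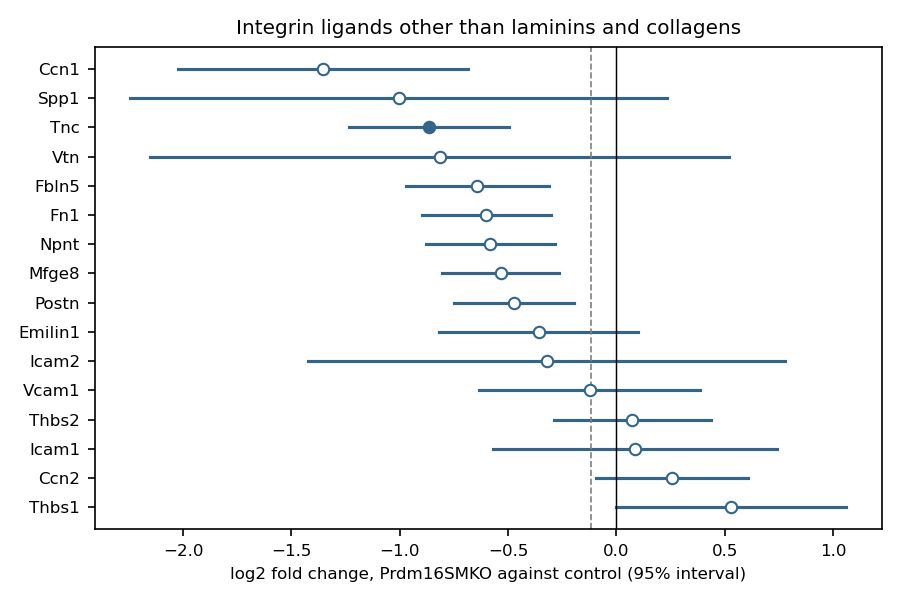
Log2 fold change of Prdm16SMKO against control aortas (horizontal axis, points) with its 95% interval (lines) for 16 integrin ligands other than laminins and collagens. Tnc is the only filled point (adjusted p under 0.05), and 12 of the 16 points lie below 0.

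Of 26 tested genes of focal adhesions and integrin activation, none was called by limma (6 lower and 0 higher at an unadjusted p under 0.05), 9 separated the groups toward lower and 1 toward higher values, beside the same 14.9% and 4.08% over all tested genes, and the median log2 fold change was −0.21, beside −0.12. The 3 with the lowest unadjusted p were Ilk, the integrin-linked kinase, Actn4, an actin crosslinker, and Vcl, vinculin, with log2 fold changes of −0.51, −0.45 and −0.52 and limma adjusted p-values of 0.117, 0.119 and 0.205. Of 13 tested basement membrane partners and other laminin receptors, none was called by limma (2 lower and 3 higher at an unadjusted p under 0.05), and 3 separated the groups toward higher (4.08% over all tested genes) and 2 toward lower values (14.9%). Ntn4, netrin-4, which binds laminin, was 30.7 ± 1.45 TPM in the controls and 44.4 ± 2.25 TPM in the Prdm16SMKO aortas (SD, n = 3 each, limma adjusted p = 0.072). Sgca, a sarcoglycan, had a log2 fold change of 0.72 (limma adjusted p = 0.096), and Dag1, dystroglycan, one of −0.43 (limma adjusted p = 0.201).

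Of 19 tested syndecan partners, heparan sulphate enzymes and glypicans, none was called by limma (2 lower and 1 higher at an unadjusted p under 0.05), and 4 separated the groups, all toward lower values (14.9% over all tested genes). Sulf2, which removes sulphate groups from heparan sulphate, was 83.5 ± 9.65 TPM in the controls and 53.3 ± 4.34 TPM in the Prdm16SMKO aortas (SD, n = 3 each, limma adjusted p = 0.057). Ext1, which extends the heparan sulphate chain, had a log2 fold change of −0.51 (limma adjusted p = 0.094). Sulf1, which acts as Sulf2 does, had one of 0.37 with overlapping groups. Of the genes in these 4 lists, the paper's list of differentially expressed genes with promoter peaks holds Fn1, Postn, Mfge8, Emilin1, Npnt, Ilk, Vcl, Sulf2 and Ext1 as lower. It holds Ntn4 and Sulf1 as higher, and does not hold Tnc.

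A PRDM16 Flag peak was centred within 2 kb of a TSS in 19 of the 41 genes, or 46.3%, beside 26.2% of all genes with a RefSeq TSS. Among the 31 genes tested for RNA it was 18, or 58.1%, beside 43.3% of all such tested genes. No vector peak lay in or near the promoter of any of the 41 genes. The vector list held 67 peaks and the PRDM16 list 11271. With 1 library per condition these counts have no replicate check, and they come from fibroblasts and not from the aorta.

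All 4 syndecans had a promoter peak, as did 4 of 8 integrin beta chains, 8 of 18 integrin alpha chains, 2 of 3 laminin beta chains, 1 of 3 laminin gamma chains and none of the 5 laminin alpha chains. All 3 called genes had one, and so did 5 of the 7 genes whose groups did not overlap and 13 of the 24 whose groups overlapped. The median log2 fold change was −0.14 in the tested genes with a promoter peak and −0.14 in those without. Itga8 had no promoter peak, and the nearest peak lay at −458 kb from its TSS, far upstream.

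The 19 genes held 23 promoter peaks with fold enrichments from 3.52 to 10.2 and a median of 5.58, against a median of 5.27 over the whole PRDM16 list. The highest was that of Sdc2, above 97.0% of all PRDM16 peaks, in a gene whose RNA was not called. Of the 23 peaks, 19 were centred downstream of the TSS, 17 of them within 600 bp, and 4 upstream (those of Itga3 and Itgb8, and 1 each of Lamc1 and Sdc3). By centre, 9 lay in exons, 10 in introns and 4 outside the gene. When the window was narrowed to 1 kb before and 100 bp after the TSS, only these 4 genes kept a promoter peak. That was 9.76% of the 41 genes beside 9.0% of all genes, and 12.9% of the 31 tested genes beside 14.1% of all tested genes, so the members' share was near the background in this window.

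**Figure D5:**
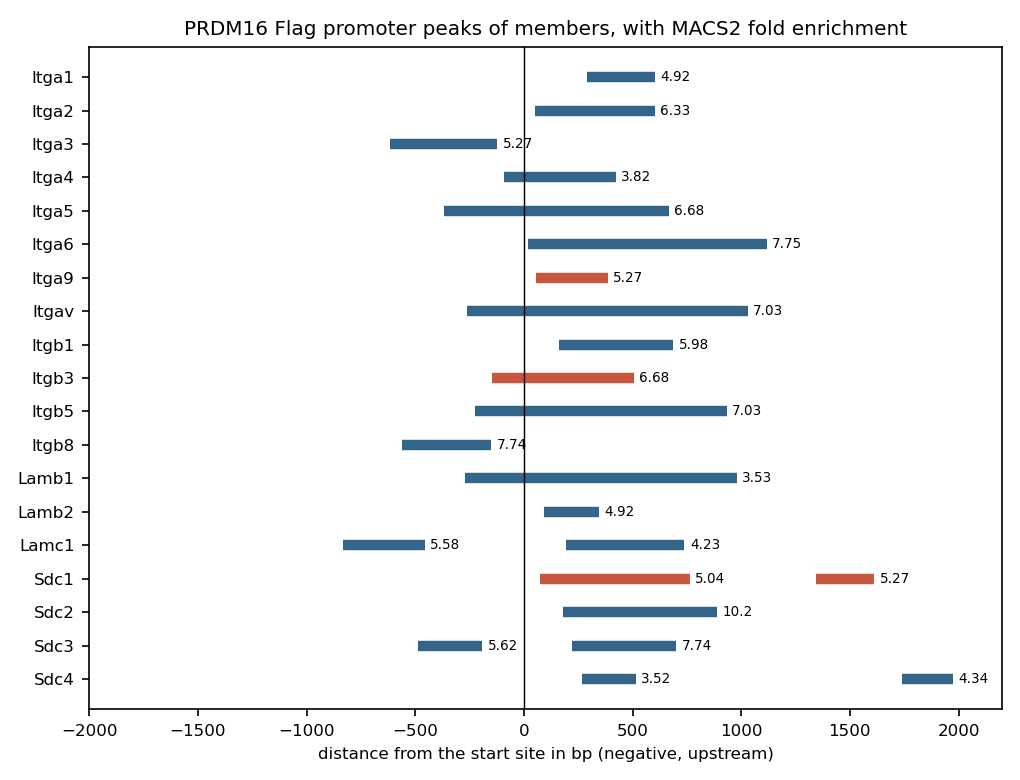
Extent of each PRDM16 Flag promoter peak relative to the TSS (horizontal axis, bp, negative values upstream), 1 row for each of the 19 genes, with the MACS2 fold enrichment printed beside each bar and the called genes Itga9, Itgb3 and Sdc1 in red. Of the 23 bars, 19 are centred downstream of the TSS, and Sdc2 has the highest enrichment at 10.2.

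The promoter peaks were searched on both strands for 4 motifs, each counted on its own, so that bases shared by matches of different motifs count for both. The GC box GGGCGG was in 12 of the 23 peaks (52.2%), beside 52.8% of all PRDM16 peaks, and the E-box CACGTG in 3 (13.0%), beside 8.47%. The GATA core AGATAA was in 1 peak (4.35%), beside 9.47%, and the CArG box in none, beside 0.968%. The peaks of these genes had a median G and C content of 64.5%, close to the 63.0% over all peaks. Their median length was 516 bp, beside 394 bp over all peaks, and the shares were not adjusted for length.

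RefSeq promoter sequences of GRCm38.p6, from 250 bases before to 50 after each start, were available for 26 of the 41 genes in 29 windows. The GC box was in 15 of them (51.7%), beside 35.7% of all promoters of that length. It was in 12 of 16 windows of genes with a PRDM16 peak and in 3 of 13 windows of genes without one. The median G and C content of these windows was 64% and 56%, and its part in the counts was not tested. Windows were matched by gene and not by peak, and that of Itga9 starts at chr9:118711442, away from its promoter peak. A match of letters is a description and not a binding site.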

How the data were processed

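The authors deposited RNA-Seq values as TPM with 1 column per aorta, from poly(A)-selected libraries. The submitters' processing notes name STAR 2.7.8a, RSEM 1.3.3, Bowtie2 2.3.4.1, MACS2 and GRCm38. For ChIP-Seq the authors deposited MACS2 peak lists with the fold enrichment as a ratio over the local background and the −log10 q value of each peak. The control library given to MACS2 is not given in the sources used here, and the IgG libraries were not analysed here.

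Columns named WT and KO were matched to the samples titled Control and Prdm16SMKO. Nothing says that the aortas of a group were more than separate samples, so p-values measure the spread between them. Genes averaging 0.5 TPM or more were tested with limma 3.58.1 (R 4.3.3; lmFit, eBayes with a mean-variance trend, no covariates) on log2(TPM + 0.1), with Benjamini-Hochberg adjustment over 15668 genes at 0.05, and the procedure was tested on simulated data. Fold changes on this scale understate those of low genes. An exact permutation test of 3 against 3 cannot go below 0.1. Peaks were assigned by their centre within 2 kb of a curated RefSeq TSS, and windows of 101 bases around summits were read from GRCm38.p6 with pysam 0.24.0. Values per aorta are given for genes called, separate between the groups, or highest in their subfamily, and the called genes of 4 pathway lists, or the 3 with the lowest unadjusted p, are named. Itga5 (per aorta), Npnt and the other uncalled integrin ligands, Erg and the members given by mean ± SD were named outside that rule, after their values were seen. The members and lists were chosen with earlier results of these data known. Alternatives were pseudocounts of 1 and 0.01, other filters and scalings, eBayes without a trend, a replicate block, leaving out each aorta, and other promoter windows, peak thresholds and TSS annotations.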

Additional observations from a re-analysis of the deposited data

How the results depend on the processing

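The 3 called genes (Itga9, Itgb3 and Sdc1) were also the genes called at pseudocounts of 1 and 0.01, with a mean TPM of at least 1, after median-ratio rescaling, after quantile normalization and with the replicate block, where 3 were called. Without a filter and with eBayes without a trend 0 were called by limma (5 lower and 1 higher at an unadjusted p under 0.05 in each), although all 3 kept their direction. Leaving out each aorta gave 0 to 2 calls, with 2 (Itga9 and Itgb3) without Prdm16SMKO replicate 2 and 0 without any of Control replicates 1, 2 and 3 or Prdm16SMKO replicates 1 and 3 (4 to 7 lower and 0 to 2 higher at an unadjusted p under 0.05). Over all alternatives the adjusted p-values ran from 0.0066 to 0.144 for Itgb3, 0.00912 to 0.168 for Itga9 and 0.0281 to 0.118 for Sdc1. The cause was not tested.

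Median-ratio rescaling moved the median of all tested genes from −0.12 to 0.005 on the log2 scale, and the calls over all genes from 61 higher and 107 lower to 200 higher and 213 lower. The number of genes called in the whole table was 168, with 110 without a filter, 48 without a trend, 413 and 392 after median-ratio rescaling and quantile normalization, and 91 to 141 with an aorta left out. With each gene taken relative to the summed smooth muscle markers, an alternative chosen after seeing the data, the median of all tested genes moved to 0.34 and 13 of the 31 genes were called, with Itga9, Itgb3 and Sdc1 still lower (−0.36, −0.60 and −0.48) and the other 10 higher, where 27.9% of all tested genes were called higher and 0.906% lower. On that scale 16 of the 31 genes turned sign, and among those named with values in every aorta by rule these were Itga3 (0.0652), Itgb1 (0.356), Lamb2 (0.384) and Sdc4 (0.166). The basement membrane list had 11 higher and 0 lower genes there at a limma unadjusted p under 0.05, and the syndecan partner list 14 and 1.

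Of the 31 genes, 6 turned sign after median-ratio rescaling, 3 after quantile normalization and 2 to 5 with an aorta left out, none of them Itga9, Itgb3 or Sdc1. Itgb1 went to 0.0143 and 0.0729 and Lamb2 to 0.0429 and 0.079 after median-ratio rescaling and quantile normalization. With an aorta left out, Lamb2 ranged from −0.188 to 0.0326, Lama4 from −0.0379 to 0.176 and Lamc1 from −0.0413 to 0.168. Same-numbered deviations from the group means correlated at −0.0246, −0.07 and −0.00896. With 3 aortas per group such values cannot show whether the aortas were paired. The replicate block left the 3 calls in place with 184 calls over all genes. Tnc kept its call in 6 of 16 fits and Prdm16 passed the threshold in 4 of 16.

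The number of the 41 genes with a promoter peak was 19 within 1 kb (24.7% of all genes) and by the summit (26.2%), 20 within 5 kb (28.4%) and with GENCODE vM21 start sites (14.9%), 18 at a q of at most 0.001 (23.8%), and 4 from 1 kb before to 100 bp after the start site (9.0%, beside 9.76% of the 41). The GENCODE share is over 55126 genes, against 25163 genes for RefSeq. Among genes tested for RNA the GENCODE setting gave 61.3% of the 31 beside 40.1% of all tested genes. TPM give no read depth, which leaves low genes without a counting error.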
